A study of Mus musculus with 15 samples.

Results

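Whole-kidney RNA of Hyp mice was compared with that of wild-type (WT) mice by RNA sequencing, using the 10 libraries whose titles read Hyp or WT, 5 of each, of 15 libraries in the series. The Hyp mice belong to the Hyp-Duk line, carry the genotype label Phex_KO and received PBS. The WT mice are labelled wild type, with 1 exception given below, and also received PBS. Per the labels' protocol, AAV-cFGF23 was injected at 4 weeks of age and kidneys were taken 3 months later, and the time of the PBS dose is not given apart from this. Each library came from 1 mouse at 4 months of age, and the other 5 libraries, from Hyp mice given AAV-cFGF23, were not used in the comparison. The mutation is carried by the whole animal and is not limited to the kidney. The labels used here give neither sex nor strain. Transcripts of the Y-linked gene Ddx3y stood at 57.2 to 65.7 CPM (read counts scaled for library size and composition) in Hyp and at 53.2 to 66.6 CPM in WT kidneys, and Xist, the transcript of an inactive X chromosome, was at or below 0.43 CPM in all 10 libraries.

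Phex is an X-linked endopeptidase of bone and teeth, and its loss raises circulating FGF23, a bone hormone. In the kidney, FGF23 binds FGF receptors together with the co-receptor Klotho and activates ERK kinase signalling. The known outcomes are less sodium-phosphate cotransporter in the proximal tubule, so that phosphate is lost in urine, and an altered balance of the enzymes that make and break down active vitamin D. Kidney Phex itself could not check the genotypes: it had 3, 0, 0, 0 and 0 counts in the Hyp libraries and 0, 1, 1, 0 and 0 counts in the WT libraries. Fgf23 was not analysed here.

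Raw counts per library ran from 14251927 to 21885678, and the share from mitochondrial genes was 8.678% to 10.16% in Hyp and 9.186% to 10.12% in WT libraries. Kidney genes of several segments were present in every library, such as Umod of the thick limb at 2570 to 3510 CPM in Hyp and 2620 to 3080 CPM in WT kidneys. A pair of libraries stood apart. The library titled WT_5 carries the labels Phex_KO for genotype and Hyp for cell type, against its title. On the first principal component of all tested genes, which held 26.6% of the variance, the Hyp libraries lay between -29.9 and -6.5, WT_5 at -6.5 and WT_1 to WT_4 between 8.8 and 30.7. Over the 1516 genes called without WT_5, that library lay at a median position of 0.7 on a scale where 0 is the mean of WT_1 to WT_4 and 1 the mean of Hyp, with quartiles of 0.41 and 0.93. The same measure for WT_1, WT_2, WT_3 and WT_4, each left out together with WT_5 and taken over the genes called in that fit, gave medians of 0.33, -0.04, 0.38 and 0.09. WT_5 is kept in the group of its title, and results are given with and without it.

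The other library is Hyp_4, which held adrenal transcripts. All 15 adrenal genes examined were highest there. Cyp11b1, the adrenal cortex enzyme that completes glucocorticoid synthesis, stood at 188 CPM in Hyp_4 and at 0 in the other 9 libraries. Cyp21a1, an enzyme of the same pathway, stood at 321 CPM in Hyp_4 and at most 0.147 CPM elsewhere, and Th, which makes catecholamines in the adrenal medulla, at 20.7 CPM in Hyp_4 and 0 elsewhere. The summed level of the list was 1790 CPM in Hyp_4, 20.4 to 25.5 CPM in the other Hyp kidneys and 15.8 to 23.8 CPM in WT kidneys. Star and Scarb1, which carry cholesterol in steroid-making cells and entered the test, had 348 and 114 CPM in Hyp_4. The log2 fold change of Star between the groups was 4.03 ± 1.34, adjusted p = 0.105, and without Hyp_4 -0.07 ± 0.14, adjusted p = 0.818. For Scarb1 the change was 1.55 ± 0.56, adjusted p = 0.13, and 0.39 ± 0.13, adjusted p = 0.14 without Hyp_4.

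**Figure D1:**
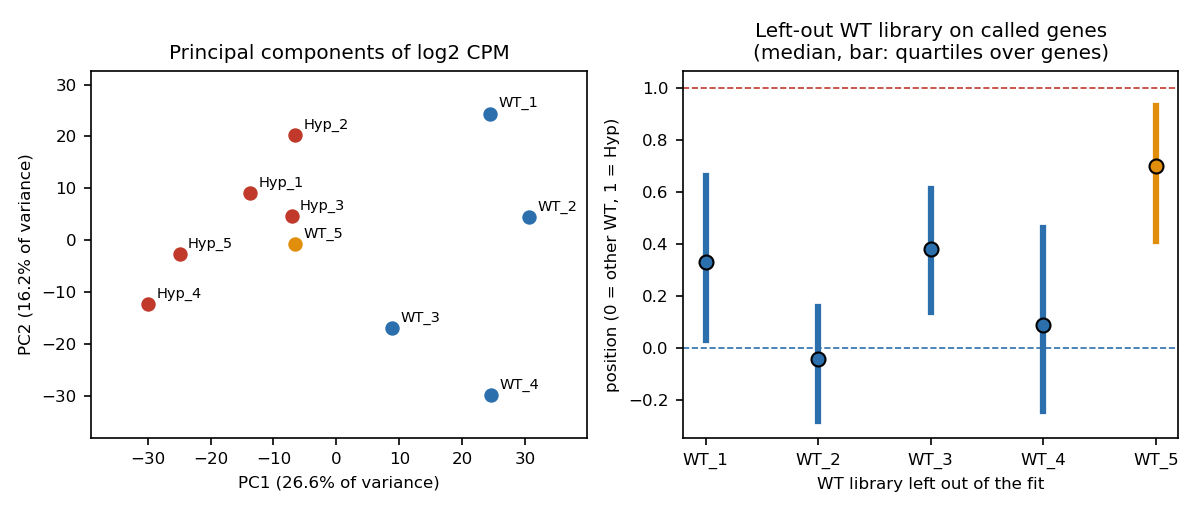
Left, principal components of log2 CPM of the 10 libraries, each axis with its share of variance (red Hyp, blue WT_1 to WT_4, orange WT_5). Right, median position (points) and quartiles over genes (bars) of each WT library left out of the fit, on a scale from the other WT libraries (0) to Hyp (1). WT_5 lies beside the Hyp libraries on PC1, at -6.5, and its median position of 0.7 is the highest of the 5 WT libraries.

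Changes are given as log2 fold changes, Hyp over WT, with their standard error, and adjusted p-values are from edgeR's quasi-likelihood test over all genes tested. Averages are means ± SD of 5 kidneys a group. Of 15479 genes tested, 516 (3.33%) were called at an adjusted p below 0.05 with all 10 libraries. These were 264 genes higher (1.71%) and 252 lower (1.63%) in Hyp kidneys. The changes were mostly small: 66 called genes, 38 higher and 28 lower, differed by more than 2-fold, and the median size of a called change was 0.46 on the log2 scale. Without WT_5, 1516 of 15620 genes (9.71%) were called, 702 higher (4.49%) and 814 lower (5.21%). Every Hyp kidney lay above every WT kidney in 451 genes (2.91%) and below in 435 (2.81%). All 516 genes were among the 1516, with the same sign. With Hyp_4 left out as well, 411 genes were higher and 433 lower. Leaving out Hyp_4 alone gave 108 higher and 101 lower, and leaving out any 1 library other than WT_5 gave 80 to 216 higher and 90 to 222 lower. Of 39 genes named below that were called in all 10 fits without 1 library, 23 lost the call when the 5 AAV-cFGF23 libraries were fitted together with these 10, and 5 when WT_5 was placed in the Hyp group. In the authors' deposited table, 1336 genes had an adjusted p below 0.05, and 506 of the 516 were among them. Ces1g, described below, was not: the authors give it a log2 fold change of 5.283 and no p-value. Across the genes tested, the log2 fold change tended to be higher in longer genes (Spearman's rho = 0.21 over 15479 genes of the same libraries, which are not independent), and the part of gene length in the small changes was not tested. The labels describe separate mice, and p-values measure the spread between these samples. In whole tissue, fewer cells of a type and less RNA per cell cannot be told apart.

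Genes of the FGF23 pathway changed in Hyp kidneys at the level of the receptors and downstream of ERK. Kl and Fgfr4, for the co-receptor and a receptor, were lower, and 3 ETS transcription factors and the phosphatase Dusp4 were higher. Of 27 genes of FGF receptors, Klotho, ERK-induced factors and feedback inhibitors, 4 were called higher and 2 lower with 10 libraries, against 1.71% and 1.63% of all genes tested. Without WT_5, 8 were higher and 2 lower, against 4.49% and 5.21%. The median log2 fold change of the list was 0.33, and 0.37 without WT_5, against medians of 0.01 and 0.02 over all genes tested.

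Kl encodes Klotho, the co-receptor that gives FGF23 its kidney specificity. It had 617, 654, 631, 633 and 615 CPM in the Hyp kidneys, against 979, 961, 798, 843 and 832 CPM in the WT kidneys. All Hyp kidneys lay below all WT kidneys, and the log2 fold change was -0.48 ± 0.07, adjusted p = 0.00709. Per transcript length, Kl averaged 66.4 ± 1.67 FPKM in Hyp and 93.3 ± 8.97 FPKM in WT kidneys (SD, n = 5 each, the authors' FPKM). It stood above each FGF receptor on that scale in both groups. The most abundant receptor was Fgfr4, at 22.7 ± 0.628 FPKM in Hyp and 27.2 ± 2.09 FPKM in WT kidneys. It fell slightly, by 0.26 ± 0.06 on the log2 scale (adjusted p = 0.0352), with 78.4 to 83.8 CPM in Hyp against 88.3 to 106 CPM in WT and no overlap. Fgfr1, the receptor held to carry most of the phosphate effect of FGF23, averaged 5.84 ± 0.299 FPKM in Hyp and 5.66 ± 0.441 FPKM in WT kidneys. Its log2 difference in counts was 0.05 ± 0.06, adjusted p = 0.654.

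Downstream of ERK, the 3 related ETS factors Etv1, Etv4 and Etv5, which FGF signalling induces in many tissues, were all higher. Etv5 had 32.8, 42, 28.2, 36.4 and 39 CPM in the Hyp kidneys, against 17.5, 24.9, 18.1, 16.3 and 23.7 CPM in the WT kidneys, a log2 fold change of 0.83 ± 0.14, adjusted p = 0.00965. Every Hyp kidney was above every WT kidney, the closest being Hyp_3 and WT_2. Etv4 was a low gene, with 2.39, 4.08, 2.84, 2.34 and 2.3 CPM in the Hyp kidneys, against 1.15, 1.37, 0.582, 0.786 and 0.709 CPM in the WT kidneys. The groups did not overlap, and the change was 1.63 ± 0.27, adjusted p = 0.0097. Etv1 stood at 47.7 to 53.5 CPM in Hyp and 27.6 to 41.4 CPM in WT kidneys, again with no overlap (0.53 ± 0.09, adjusted p = 0.0134). Dusp4, a phosphatase that ERK induces and that switches ERK off in turn, had 28.2, 24.8, 26.9, 25.6 and 25.7 CPM in the Hyp kidneys, against 16, 17.4, 17.1, 16.3 and 20.2 CPM in the WT kidneys. WT_5 was the highest WT kidney, still below every Hyp kidney, and the change was 0.60 ± 0.07, adjusted p = 0.00466.

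Of the other feedback inhibitors of the pathway, none was called with 10 libraries. Spred3, Spred2, Spry2 and Spry4, which restrain Ras and ERK, were called higher without WT_5. Their log2 changes were 0.87, 0.41, 0.41 and 0.51, with adjusted p of 0.0232, 0.0318, 0.041 and 0.0452. With all 10 libraries the adjusted p were 0.0526, 0.0613, 0.11 and 0.149. Dusp6, the phosphatase often used as a readout of ERK activity, had 62.4, 71.8, 70.8, 72.3 and 87 CPM in the Hyp kidneys, against 32.7, 47.3, 52.7, 76.3 and 85.9 CPM in the WT kidneys. WT_1 to WT_3 lay below all Hyp kidneys, and WT_4 and WT_5 within them. Its change did not pass the test in either fit (0.31 ± 0.21, adjusted p = 0.41; without WT_5 0.48 ± 0.19, adjusted p = 0.126). Kl, Dusp4, Etv1, Etv4 and Etv5 were called in all 10 fits that left out 1 library. Kl (adjusted p = 0.0549), Etv1 (adjusted p = 0.0853) and Dusp4 (adjusted p = 0.208) lost the call in the fit of all 3 groups. Etv4 (adjusted p = 0.0564) lost the call with WT_5 moved to Hyp. Fgfr4 was called in 2 of them, with adjusted p up to 0.0891 without WT_2.

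The targets of FGF23 in phosphate handling were next. Slc34a1, the proximal tubule cotransporter NaPi-IIa that reabsorbs most filtered phosphate, was lower in Hyp kidneys, and so was Pdzk1, the scaffold protein that binds it at the brush border. Slc34a1 had 3440, 3660, 3300, 3480 and 3880 CPM in the Hyp kidneys, against 4960, 4610, 4580, 4560 and 4540 CPM in the WT kidneys. The groups were well apart, with WT_5 the lowest WT kidney at 4540 CPM and Hyp_5 the highest Hyp kidney at 3880 CPM. The log2 fold change was -0.38 ± 0.07, adjusted p = 0.0115, and the call held in all 10 fits without 1 library. Slc34a1 (adjusted p = 0.0591) lost the call in the fit of all 3 groups. Pdzk1 had 480, 482, 448, 450 and 467 CPM in the Hyp kidneys, against 717, 701, 569, 625 and 501 CPM in the WT kidneys, lower without overlap (-0.42 ± 0.09, adjusted p = 0.0308). WT_5 was again nearest to Hyp. Leaving out 1 library kept the call of Pdzk1 in 3 of 10 fits (largest adjusted p 0.0809, without WT_2). Slc34a2, the cotransporter of lung and intestine and a minor transcript in kidney, was higher: 8.34, 7.78, 11, 13.2 and 12.2 CPM in the Hyp kidneys, against 5.81, 7.91, 5.6, 5.84 and 6.33 CPM in the WT kidneys (0.74 ± 0.16, adjusted p = 0.0301). WT_2 overlapped the lowest Hyp kidneys. The call was kept in 4 of 10 fits and was lost without Hyp_4 (0.65 ± 0.16, adjusted p = 0.071).

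The other cotransporters had no called change. Slc34a3, or NaPi-IIc, averaged 43.8 ± 4.96 CPM in Hyp kidneys and 45.7 ± 11.3 CPM in WT kidneys (-0.06 ± 0.16, adjusted p = 0.865). Slc20a2, or PiT-2, averaged 63.5 ± 6.6 CPM in Hyp kidneys and 56.6 ± 6.04 CPM in WT kidneys (0.17 ± 0.09, adjusted p = 0.276). For Slc34a3 the spread among WT kidneys was wider than the difference. Pth1r, the receptor of parathyroid hormone, the other hormone that lowers phosphate reabsorption, had 593, 581, 538, 512 and 534 CPM in the Hyp kidneys, against 714, 745, 637, 739 and 543 CPM in the WT kidneys. WT_5 lay within the Hyp kidneys and the other WT kidneys above them, and Pth1r was called lower only without WT_5 (-0.36 ± 0.07, adjusted p = 0.0112; with 10 libraries -0.29 ± 0.09, adjusted p = 0.0846). In all, 1 higher and 2 lower of 14 tested phosphate transport genes were called, against 1.71% and 1.63% of all genes tested. Without WT_5, 1 higher and 3 lower of 14 were called, against 4.49% and 5.21%.

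Among 17 genes of vitamin D handling and response, Calb1 was the one called in either fit. Of all genes tested, 1.63% were called lower, and 5.21% without WT_5. Calb1 encodes calbindin-D28k, a calcium-binding protein of the distal tubule whose transcription active vitamin D promotes. Calb1 had 202, 265, 198, 286 and 258 CPM in the Hyp kidneys, against 395, 420, 406, 447 and 275 CPM in the WT kidneys. WT_5 lay just below Hyp_4, the highest Hyp kidney, and the other WT kidneys lay above all Hyp kidneys. The change was -0.68 ± 0.13, adjusted p = 0.0215, or -0.78 ± 0.10, adjusted p = 0.00229 without WT_5. The call held in 7 of 10 fits without 1 library and was lost without Hyp_1, WT_1 or WT_2 (adjusted p up to 0.0591). Cyp24a1, the enzyme that breaks down active vitamin D and that FGF23 is known to raise, varied widely among the Hyp kidneys. It had 81.6, 375, 41.2, 328 and 320 CPM in the Hyp kidneys, against 16.9, 67, 39.4, 110 and 122 CPM in the WT kidneys. Hyp_2, Hyp_4 and Hyp_5 exceeded every WT kidney by more than 2-fold, while Hyp_1 and Hyp_3 lay within the WT range. The mean difference was 1.69 ± 0.61, adjusted p = 0.127, and 1.97 ± 0.66, adjusted p = 0.0804 without WT_5. Cyp27b1, the enzyme that makes active vitamin D, had 10.8, 3.48, 14.3, 9.28 and 8.32 CPM in the Hyp kidneys, against 3.08, 3.92, 6.03, 3 and 9.22 CPM in the WT kidneys (0.86 ± 0.37, adjusted p = 0.192). Hyp_3 was highest and Hyp_2 lay among the WT kidneys. The vitamin D receptor Vdr averaged 287 ± 35.2 CPM in Hyp kidneys and 304 ± 21.9 CPM in WT kidneys (-0.08 ± 0.08, adjusted p = 0.634), and the calcium channel Trpv5 13.5 ± 2.14 CPM in Hyp kidneys and 12.4 ± 2.27 CPM in WT kidneys (0.13 ± 0.14, adjusted p = 0.613).

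**Figure D2:**
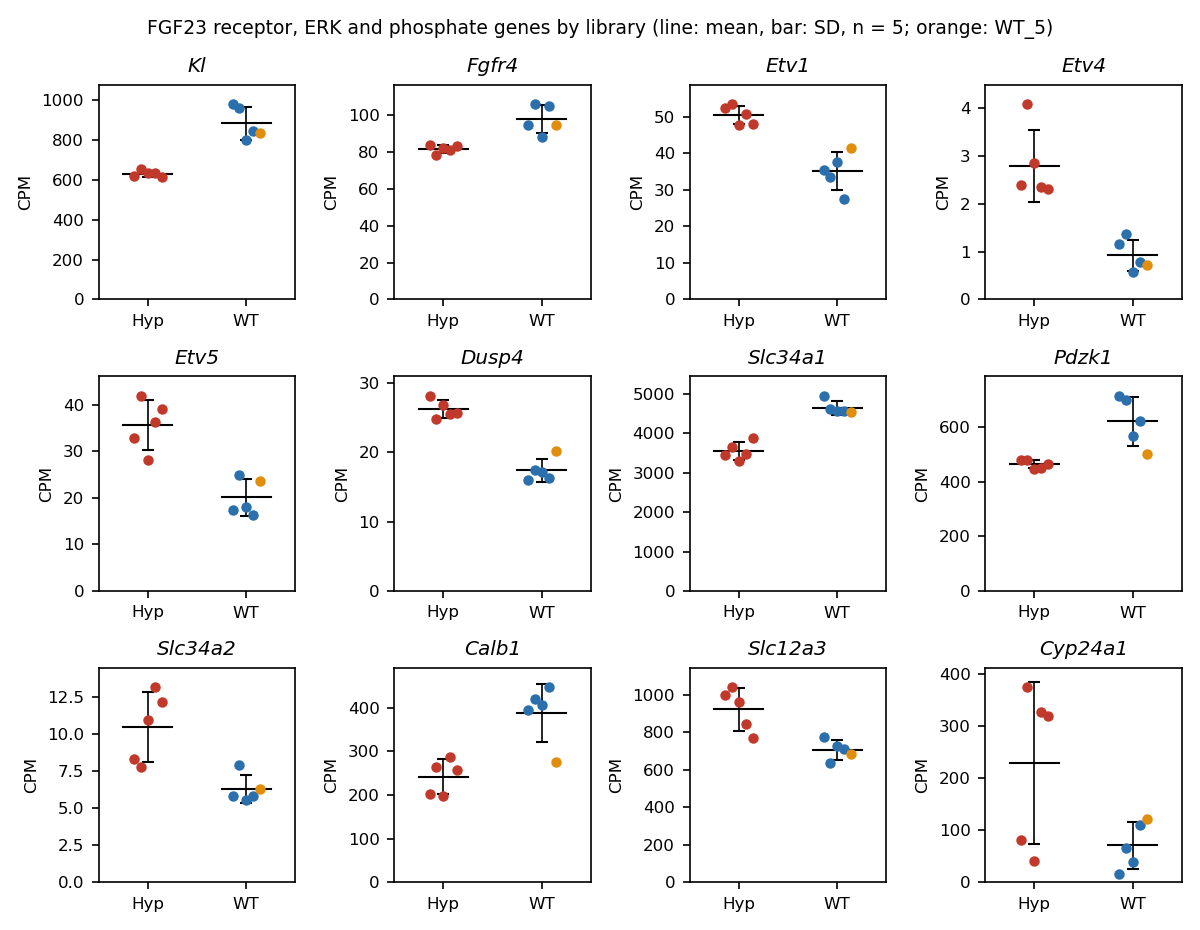
Level of 12 genes of FGF23 signalling, phosphate and vitamin D handling in CPM, each point 1 kidney, Hyp left and WT right (red Hyp, blue WT_1 to WT_4, orange WT_5), with the mean (line) and SD (bar, n = 5). Kl, Fgfr4, Slc34a1 and Pdzk1 are lower in all Hyp kidneys and Etv1, Etv4, Etv5 and Dusp4 higher, while Cyp24a1 spreads from 41.2 to 375 CPM within Hyp.

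The 12 largest rises and 12 largest falls, among protein-coding genes called with and without WT_5 whose average log2 CPM was 1 or more, held no gene of the FGF23 pathway. Etv4, with a change of 1.63, lay below that level. Ces1g, a carboxylesterase of lipid and drug ester hydrolysis, was the first of the 12 largest rises. It had 128, 117, 115, 119 and 133 CPM in the Hyp kidneys, against 2.01, 1.37, 1.53, 1.08 and 9.66 CPM in the WT kidneys. The Hyp kidneys varied little, and the highest WT kidney was WT_5. The log2 fold change was 5.28 ± 0.46, adjusted p = 0.000459, and 6.38 ± 0.13, adjusted p = 1.92e-10 without WT_5. The Ces1 genes are a family of close copies, and how reads shared between copies were counted is not given in the labels. Ttr, which encodes transthyretin, a carrier of thyroid hormone and retinol-binding protein, had 1230, 1870, 1170, 930 and 932 CPM in the Hyp kidneys, against 44.2, 75.4, 62.2, 80.3 and 466 CPM in the WT kidneys. WT_5 lay between the groups on this gene, above WT_4 by more than 5-fold. The change was 3.08 ± 0.60, adjusted p = 0.0205, and 4.23 ± 0.25, adjusted p = 7.4e-06 without WT_5. Leaving out WT_2 ended the call (adjusted p = 0.0591). Nat8f2, an N-acetyltransferase of the Nat8 family, had 105, 86.8, 93.4, 101 and 109 CPM in the Hyp kidneys, against 27.7, 34.7, 30.2, 33.2 and 54.2 CPM in the WT kidneys (1.46 ± 0.15, adjusted p = 0.00202). Tmem252, a gene of little known function, had 236, 324, 264, 157 and 189 CPM in the Hyp kidneys, against 73, 75.6, 47.6, 97.1 and 98.6 CPM in the WT kidneys (1.58 ± 0.22, adjusted p = 0.00644). Both were higher in every Hyp kidney and called in all 10 fits without 1 library, as was Ces1g.

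The other large rises were less uniform. Prlr, the prolactin receptor, ranged from 6.11 to 38.3 CPM in Hyp and 3.49 to 9.38 CPM in WT kidneys, with Hyp_3 below WT_5 (2.07 ± 0.43, adjusted p = 0.027). Rnase4, a secreted ribonuclease, had 58.9, 65.2, 69.2, 44.6 and 69.3 CPM in the Hyp kidneys, against 10.8, 8.91, 20, 10.6 and 49.1 CPM in the WT kidneys (1.62 ± 0.40, adjusted p = 0.048), and WT_5 lay within the Hyp kidneys. Elapor1, an endosome and lysosome protein, showed the same at a low level, with 3.44 to 7.18 CPM in Hyp kidneys, 1 to 1.25 CPM in the WT kidneys 1 to 4 and 4.04 CPM in WT_5 (1.47 ± 0.37, adjusted p = 0.0492). Aldh1a1, a retinaldehyde dehydrogenase, was high in 4 Hyp kidneys at 50.7 to 72.5 CPM, and Hyp_1 at 16.2 CPM lay within the WT range of 10.8 to 25 CPM (1.49 ± 0.35, adjusted p = 0.0408). Ly6f, a Ly6 family surface protein, averaged 3.54 ± 1.16 CPM in Hyp kidneys and 1.11 ± 0.535 CPM in WT kidneys (1.66 ± 0.32, adjusted p = 0.0199). A pair of these rises were highest in the kidney with adrenal transcripts. Abcb1b, a drug efflux pump that the adrenal cortex also expresses, had 16.6, 19.9, 18.5, 63.1 and 23.9 CPM in the Hyp kidneys and 6.81, 4.11, 8.09, 9.23 and 14.7 CPM in the WT kidneys (1.72 ± 0.40, adjusted p = 0.0399). Without Hyp_4 the change was 1.20 ± 0.27, adjusted p = 0.055, no longer called. Greb1, a gene first known as an oestrogen target, had 3.42, 5.82, 2.65, 9.04 and 4.78 CPM in the Hyp kidneys and 1.22, 1.56, 1.69, 2.06 and 1.86 CPM in the WT kidneys (1.61 ± 0.30, adjusted p = 0.0176), and its call was kept without Hyp_4 (1.31 ± 0.24, adjusted p = 0.0325). Over the adrenal list, the other Hyp kidneys summed to 20.4 to 25.5 CPM and the WT kidneys to 15.8 to 23.8 CPM. The part of adrenal RNA in the difference without Hyp_4 was not tested. Among the fits without 1 library, Prlr in 4 (largest adjusted p 0.073, without WT_2), Abcb1b in 2 (largest adjusted p 0.094, without WT_2), Aldh1a1 in 2 (largest adjusted p 0.103, without Hyp_5), Rnase4 in 1 (largest adjusted p 0.111, without Hyp_5), Elapor1 in 1 (largest adjusted p 0.117, without WT_2), Ly6f in 7 (largest adjusted p 0.0571, without Hyp_5) and Greb1 in 9 (largest adjusted p 0.0536, without WT_2) of 10 held the call.

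The largest fall was in Synpr, which encodes synaptoporin, a synaptic vesicle protein. It had 0.752, 0.327, 1.3, 0.307 and 0.413 CPM in the Hyp kidneys, against 40.5, 21.9, 23.6, 24.5 and 0.546 CPM in the WT kidneys. WT_1 to WT_4 lay far above all Hyp kidneys, and WT_5 had a level inside the Hyp range. The log2 fold change was -5.16 ± 0.83, adjusted p = 0.00959, and -5.48 ± 0.33, adjusted p = 7.4e-06 without WT_5. Dnase1, a secreted endonuclease that clears extracellular DNA and is abundant in kidney, had 466, 619, 620, 627 and 618 CPM in the Hyp kidneys, against 1720, 2030, 1730, 2220 and 1270 CPM in the WT kidneys, a log2 fold change of -1.60 ± 0.14, adjusted p = 0.000459. Ftcd, which passes carbon from histidine to folate, had 19.5, 15.8, 19.1, 22.2 and 22.3 CPM in the Hyp kidneys, against 52.3, 62.9, 56.1, 60 and 37.4 CPM in the WT kidneys (-1.44 ± 0.14, adjusted p = 0.00082). In both genes all Hyp kidneys lay below all WT kidneys, and WT_5 was the lowest WT kidney. Snx31, a sorting nexin of endosomes, averaged 18.2 ± 2.64 CPM in Hyp kidneys and 55.5 ± 15.2 CPM in WT kidneys (-1.60 ± 0.19, adjusted p = 0.00405). Hapln1, which links hyaluronan to proteoglycans in matrix, averaged 1.36 ± 0.441 CPM in Hyp kidneys and 6.04 ± 2.62 CPM in WT kidneys (-2.15 ± 0.36, adjusted p = 0.0109). Ct55, a cancer and testis antigen gene, averaged 4.08 ± 1.31 CPM in Hyp kidneys and 13.6 ± 4.84 CPM in WT kidneys (-1.73 ± 0.29, adjusted p = 0.0115), Msantd3 4.79 ± 0.701 CPM in Hyp kidneys and 11.6 ± 3.88 CPM in WT kidneys (-1.26 ± 0.23, adjusted p = 0.0158), and Anks1b, an ankyrin repeat scaffold, 3.16 ± 1.1 CPM in Hyp kidneys and 8.66 ± 2.68 CPM in WT kidneys (-1.45 ± 0.26, adjusted p = 0.0153). In each of these 5 genes WT_5 was the lowest WT kidney, and in all of them but Snx31 it lay within the Hyp range.

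The other 4 of the 12 largest falls were Ctnna2, Prkag3, Fat2 and Mfsd2a. Ctnna2, an alpha-catenin of cell junctions, had 2.26, 3.21, 2.41, 2.52 and 1.65 CPM in the Hyp kidneys, against 8.1, 5.73, 5.71, 5.11 and 5.46 CPM in the WT kidneys, with WT_5 among the WT kidneys (-1.31 ± 0.19, adjusted p = 0.00771). Prkag3, part of the energy sensor AMPK, had 4.1, 5.82, 3.95, 5.04 and 5.67 CPM in the Hyp kidneys, against 12, 10.7, 9.3, 22.1 and 13 CPM in the WT kidneys, and here too WT_5 was not apart (-1.44 ± 0.22, adjusted p = 0.00891). The giant cadherin Fat2 averaged 2.03 ± 0.241 CPM in Hyp kidneys and 5.55 ± 1.84 CPM in WT kidneys (-1.44 ± 0.24, adjusted p = 0.0109), with WT_5 lowest in WT. Mfsd2a, a transporter of lysophospholipids that carry omega-3 fatty acids, averaged 30.7 ± 6.35 CPM in Hyp kidneys and 75 ± 35 CPM in WT kidneys (-1.29 ± 0.26, adjusted p = 0.0232), and its high WT mean rested in part on WT_4 at 134 CPM. Of the 12 largest falls, 10 were called in all 10 fits without 1 library. Mfsd2a was called in 6 (largest adjusted p 0.0647, without Hyp_5) and Msantd3 in 9 (adjusted p = 0.0501 without Hyp_5). Synpr (adjusted p = 0.0815), Hapln1 (adjusted p = 0.0927), Ct55 (adjusted p = 0.0853), Snx31 (adjusted p = 0.0528) and Anks1b (adjusted p = 0.185) lost the call in the fit of all 3 groups. Prkag3 (adjusted p = 0.0561) lost the call with WT_5 moved to Hyp. Synpr was also not called by limma-voom (adjusted p = 0.269), with or without quality weights (adjusted p = 0.113 with them).

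**Figure D3:**
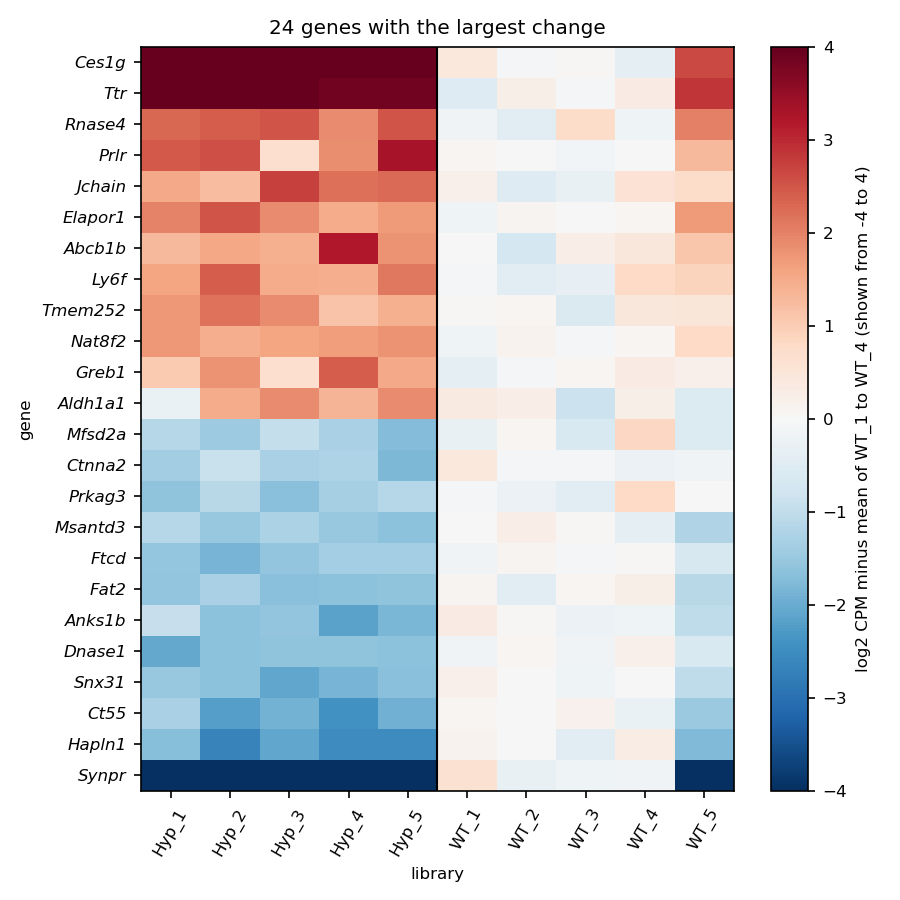
Log2 CPM of the 12 largest rises and 12 largest falls in each library, minus the mean of WT_1 to WT_4 (colour scale from -4 to 4, genes ordered by their Hyp mean, Hyp libraries left of the line and WT right). WT_5 has intermediate colours on some genes, such as Ces1g and Ttr. On others, such as Synpr, Ct55 and Rnase4, it lies in the Hyp range, and on some, such as Prkag3 and Ctnna2, among the other WT libraries.

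Transport genes of the proximal tubule moved in both directions. Of 34 proximal tubule markers, 2 were called higher and 5 lower with 10 libraries (median -0.14), against 1.71% and 1.63% of all genes tested. Without WT_5, 5 were higher and 11 lower (median -0.15), against 4.49% and 5.21%. The summed level of the list was 55600 to 65200 CPM in Hyp and 65700 to 83200 CPM in WT kidneys, so that the groups did not overlap. Kap, an androgen-regulated protein and the most abundant of them, carried 15400 to 22300 CPM of this in Hyp and 21600 to 33600 CPM in WT kidneys, and was called only without WT_5 (-0.52 ± 0.14, adjusted p = 0.0409). Among 31 transporters of organic ions, 3 were called higher and 5 lower with 10 libraries, against the same 1.71% and 1.63%. Slc22a8, or OAT3, which takes up drugs and organic anions from blood for secretion, had 577, 666, 535, 555 and 640 CPM in the Hyp kidneys, against 213, 237, 252, 247 and 380 CPM in the WT kidneys. The groups did not overlap, with WT_5 nearest to Hyp, and the change was 1.17 ± 0.14, adjusted p = 0.00405. Slc13a1, the apical sodium-sulfate cotransporter, had 428, 466, 356, 448 and 474 CPM in the Hyp kidneys, against 234, 253, 240, 243 and 342 CPM in the WT kidneys (0.73 ± 0.11, adjusted p = 0.00807). In the other direction, Slc22a5, the carnitine transporter OCTN2, had 180, 164, 222, 158 and 214 CPM in the Hyp kidneys, against 248, 305, 280, 294 and 275 CPM in the WT kidneys (-0.58 ± 0.10, adjusted p = 0.0115). Slc22a12, the apical urate exchanger URAT1, had 981, 907, 870, 815 and 743 CPM in the Hyp kidneys, against 1250, 1350, 1360, 1360 and 953 CPM in the WT kidneys (-0.54 ± 0.11, adjusted p = 0.0214). All Hyp kidneys were below all WT kidneys for Slc22a5, and for Slc22a12 WT_5 lay within the Hyp range. The basolateral cation transporter Slc22a2, or OCT2, averaged 412 ± 29.1 CPM in Hyp kidneys and 522 ± 56.7 CPM in WT kidneys (-0.34 ± 0.08, adjusted p = 0.0407). Slc7a8, the light chain LAT2 of basolateral amino acid exit, averaged 88.6 ± 21.6 CPM in Hyp kidneys and 55.6 ± 9.88 CPM in WT kidneys (0.68 ± 0.16, adjusted p = 0.0394). Acsm1, a mitochondrial ligase of medium-chain fatty acids typical of this segment, was lower in every Hyp kidney, with 455, 490, 493, 460 and 494 CPM in the Hyp kidneys, against 666, 684, 552, 665 and 568 CPM in the WT kidneys (-0.39 ± 0.07, adjusted p = 0.0156). Slc22a8, Slc13a1, Slc22a5 and Acsm1 were called in all 10 fits without 1 library, Slc22a12 in 7 (largest adjusted p 0.0589, without WT_2), Slc7a8 in 3 (largest adjusted p 0.1, without WT_2) and Slc22a2 in 2 (largest adjusted p 0.106, without Hyp_5). Slc22a5 (adjusted p = 0.0971) and Acsm1 (adjusted p = 0.0705) lost the call in the fit of all 3 groups.

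Enzymes of drug and lipid conjugation changed in both directions. With 10 libraries, 5 higher and 6 lower of 38 tested carboxylesterase and conjugating enzyme genes were called, against 1.71% and 1.63% of all genes. Of the same 38, 5 were higher and 13 lower without WT_5, against 4.49% and 5.21%. Ephx2, the soluble epoxide hydrolase that inactivates epoxy fatty acids, had 374, 378, 410, 406 and 383 CPM in the Hyp kidneys, against 638, 661, 589, 626 and 426 CPM in the WT kidneys. The groups did not overlap, and WT_5 was the lowest WT kidney (-0.59 ± 0.10, adjusted p = 0.0123). Ugt2b37, a glucuronosyltransferase, had 266, 287, 286, 289 and 278 CPM in the Hyp kidneys, against 513, 597, 396, 526 and 389 CPM in the WT kidneys (-0.78 ± 0.11, adjusted p = 0.00685), and its neighbour in the family Ugt2b38 averaged 902 ± 134 CPM in Hyp kidneys and 1530 ± 362 CPM in WT kidneys (-0.76 ± 0.16, adjusted p = 0.0281). Both genes were lower. Members of 1 family went opposite ways. Ces2b averaged 11.3 ± 2.23 CPM in Hyp kidneys and 26.5 ± 10.6 CPM in WT kidneys (-1.22 ± 0.25, adjusted p = 0.0258), whereas Ces2e averaged 11.5 ± 1.39 CPM in Hyp kidneys and 7.77 ± 1.18 CPM in WT kidneys (0.56 ± 0.12, adjusted p = 0.0319). Nat8, which acetylates cysteine conjugates of toxins, averaged 171 ± 9.53 CPM in Hyp kidneys and 251 ± 63.7 CPM in WT kidneys (-0.55 ± 0.14, adjusted p = 0.0492), opposite to Nat8f2. Gsta2, a glutathione transferase, averaged 49.1 ± 17 CPM in Hyp kidneys and 17.8 ± 8.84 CPM in WT kidneys (1.46 ± 0.31, adjusted p = 0.0284), and the quinone reductase Nqo1 39.3 ± 2.35 CPM in Hyp kidneys and 29.2 ± 4.27 CPM in WT kidneys (0.43 ± 0.09, adjusted p = 0.0294). These families hold near-identical copies, so the split of reads between members is uncertain. Ephx2 and Ugt2b37 were called in all 10 fits without 1 library, Ces2b in 5 (largest adjusted p 0.0725, without Hyp_5), Gsta2 in 5 (largest adjusted p 0.073, without WT_2), Ugt2b38 in 4 (largest adjusted p 0.0766, without Hyp_5), Nat8 in 3 (largest adjusted p 0.11, without Hyp_4), Ces2e in 3 (largest adjusted p 0.0851, without Hyp_5) and Nqo1 in 3 (largest adjusted p 0.0844, without Hyp_5). Ephx2 (adjusted p = 0.0815) lost the call in the fit of all 3 groups.

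Of 31 cytochrome P450 genes, 4 were called lower and 0 higher with 10 libraries, against 1.63% and 1.71% of all genes tested, and 7 lower and 5 higher without WT_5, against 5.21% and 4.49%. The median was 0.06, and 17 of the genes had a higher mean in Hyp kidneys. Cyp2e1, an abundant oxidase of small molecules and ketone bodies, had 2090, 2080, 2020, 2150 and 2130 CPM in the Hyp kidneys, against 2640, 2900, 2480, 2890 and 2850 CPM in the WT kidneys. The groups were apart and WT_5 lay among the WT kidneys (-0.39 ± 0.06, adjusted p = 0.00959). Cyp2d12 averaged 34.7 ± 11.9 CPM in Hyp kidneys and 71.1 ± 13.6 CPM in WT kidneys (-1.03 ± 0.21, adjusted p = 0.0266), Cyp4f13 30.4 ± 1.48 CPM in Hyp kidneys and 36.7 ± 1.78 CPM in WT kidneys (-0.27 ± 0.06, adjusted p = 0.0299) and Cyp4a12b, a copy of the androgen-dependent fatty acid hydroxylase Cyp4a12a, 5.57 ± 1.34 CPM in Hyp kidneys and 9.87 ± 1.38 CPM in WT kidneys (-0.82 ± 0.16, adjusted p = 0.0215). Cyp2e1 held its call in all 10 fits without 1 library, Cyp4a12b in 7 (largest adjusted p 0.0619, without Hyp_5), Cyp2d12 in 6 (largest adjusted p 0.0626, without Hyp_5) and Cyp4f13 in 4 (largest adjusted p 0.0791, without Hyp_5). Cyp2e1 (adjusted p = 0.175) lost the call in the fit of all 3 groups. Cyp2e1 (adjusted p = 0.0743) lost the call with WT_5 moved to Hyp. Cyp4a12b also belongs to the androgen-dependent genes of mouse kidney, a group of male-biased proximal tubule genes, which leaned toward lower levels. Of 22 tested, 20 had a lower mean in Hyp kidneys, and the median was -0.47. With 10 libraries 5 were called lower and 0 higher, against 1.63% and 1.71% of all genes tested. Without WT_5, 13 were lower and 1 higher, against 5.21% and 4.49%, with a median of -0.52. Their summed level was 31100, 32900, 31100, 27300 and 24600 CPM in Hyp kidneys, against 39100, 50200, 35900, 44300 and 33200 CPM in WT kidneys. Every Hyp kidney lay below every WT kidney in this sum, WT_5 being the lowest WT kidney. Kap, which also counts in the proximal tubule sum above, made up much of it. With 10 libraries Kap was not called (adjusted p = 0.0905).

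Hsd17b11, a dehydrogenase of steroids and lipid droplets, had 381, 380, 436, 372 and 349 CPM in the Hyp kidneys, against 857, 798, 591, 640 and 589 CPM in the WT kidneys (-0.85 ± 0.11, adjusted p = 0.00558). Serpinf2, alpha-2-antiplasmin, had 405, 469, 420, 440 and 409 CPM in the Hyp kidneys, against 677, 660, 555, 624 and 507 CPM in the WT kidneys (-0.49 ± 0.08, adjusted p = 0.0113). Both were below WT in every Hyp kidney and called in all 10 fits without 1 library. Serpinf2 (adjusted p = 0.0984) lost the call in the fit of all 3 groups. Cndp2, a dipeptidase, averaged 1170 ± 125 CPM in Hyp kidneys and 1860 ± 383 CPM in WT kidneys (-0.66 ± 0.13, adjusted p = 0.0215) and was called in 5 of those fits (largest adjusted p 0.0619, without Hyp_5). The 1 gene called higher without WT_5 was Cyp7b1, a hydroxylase that inactivates androgen precursors and oxysterols, at 160 to 264 CPM in Hyp and 116 to 199 CPM in WT kidneys (0.73 ± 0.15, adjusted p = 0.0153; with 10 libraries 0.60 ± 0.16, adjusted p = 0.0613). Testosterone levels were not analysed here.

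In the distal nephron, genes of salt reabsorption were modestly higher, and Calb1, described above, was lower. Slc12a3, the thiazide-sensitive sodium chloride cotransporter of the distal convoluted tubule, had 1000, 1040, 963, 842 and 767 CPM in the Hyp kidneys, against 772, 633, 727, 710 and 684 CPM in the WT kidneys. The lowest Hyp kidney, Hyp_5, lay just below WT_1, and the other Hyp kidneys above all WT kidneys (0.39 ± 0.09, adjusted p = 0.0366). Stk39, the kinase SPAK that phosphorylates and activates this cotransporter, had 45.6, 45.5, 41.7, 40.8 and 41.1 CPM in the Hyp kidneys, against 36.1, 33.1, 36.5, 35.5 and 37.9 CPM in the WT kidneys (0.27 ± 0.06, adjusted p = 0.0335). Its groups did not overlap. Kcnj10, a basolateral potassium channel of the same segment, averaged 72.5 ± 6.17 CPM in Hyp kidneys and 58.8 ± 4.27 CPM in WT kidneys (0.31 ± 0.07, adjusted p = 0.0407). Wnk4, the kinase upstream of SPAK, was called higher only without WT_5 (0.27 ± 0.05, adjusted p = 0.0114), and Trpm6, the magnesium channel of the distal convoluted tubule, was called lower only then (-0.68 ± 0.12, adjusted p = 0.00789). With 10 libraries their changes were 0.22 ± 0.06, adjusted p = 0.0561 and -0.55 ± 0.17, adjusted p = 0.0859. Ptger3, a prostaglandin E2 receptor of the thick limb and distal tubule, had 75.3, 77.1, 82.6, 78 and 81 CPM in the Hyp kidneys, against 49.9, 53, 57.3, 49.2 and 72.9 CPM in the WT kidneys (0.49 ± 0.10, adjusted p = 0.0216). WT_5 was nearest to Hyp. In all, 4 higher and 1 lower of 24 tested thick limb and distal tubule markers were called, the lower one being Calb1. Over all genes tested, 1.71% were called higher and 1.63% lower. Umod, the thick limb protein uromodulin, had no called change (0.16 ± 0.09, adjusted p = 0.325). In the collecting duct, Aqp2, the water channel, averaged 342 ± 84.3 CPM in Hyp kidneys and 313 ± 90.1 CPM in WT kidneys (0.13 ± 0.20, adjusted p = 0.738). Kit, a receptor found on intercalated cells, was the 1 of 22 collecting duct markers called (0.45 ± 0.10, adjusted p = 0.0285), joined without WT_5 by Slc4a9, an anion exchanger of those cells (0.55 ± 0.10, adjusted p = 0.0102). These counts stand against 1.71% of all genes called higher, and 4.49% without WT_5. Without 1 library, Ptger3 in 6 (largest adjusted p 0.063, without WT_2), Slc12a3 in 2 (largest adjusted p 0.0945, without WT_2), Stk39 in 1 (largest adjusted p 0.0881, without WT_2), Kcnj10 in 3 (largest adjusted p 0.113, without Hyp_5) and Kit in 3 (largest adjusted p 0.073, without WT_2) of 10 fits held the call.

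Genes of energy metabolism had slightly lower means in Hyp kidneys. All 71 nuclear genes of oxidative phosphorylation that were tested had a lower mean in Hyp kidneys, against 7440 of 15479 genes tested. Their median log2 fold change was -0.21, and -0.25 without WT_5. With 10 libraries 1 of them was called lower, Ndufb6, against 1.63% of all genes tested. Without WT_5 33 of 71 were, against 5.21%. None was called higher in either fit. Ndufb6, an accessory subunit of complex I, had 57.5, 65.6, 57, 59.7 and 62 CPM in the Hyp kidneys, against 81.8, 85.6, 78.5, 86.5 and 66.4 CPM in the WT kidneys. WT_5 was the lowest WT kidney and still above every Hyp kidney (-0.40 ± 0.07, adjusted p = 0.0164). Without WT_2 the adjusted p was 0.0506. Sdhb, the iron-sulfur subunit of succinate dehydrogenase, had 308 to 348 CPM in Hyp and 338 to 436 CPM in WT kidneys, with calls only without WT_5 (-0.34 ± 0.07, adjusted p = 0.0145; with 10 libraries -0.29 ± 0.08, adjusted p = 0.0566). The summed level of the list was 19600, 21000, 18800, 19800 and 19500 CPM in Hyp kidneys, against 21900, 24000, 22300, 24200 and 20100 CPM in WT kidneys. WT_5 lay inside the Hyp range and the other WT kidneys above it. The lean was not particular to energy metabolism, since 58 of 68 ribosomal protein genes also had a lower mean in Hyp kidneys (median -0.09).

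All 18 citrate cycle genes also had lower means in Hyp kidneys (median -0.15). With 10 libraries 0 were called, against 1.63% of all genes lower, and without WT_5 7 were lower, against 5.21%. The 13 genes encoded in mitochondria had a median of -0.14 and no call in either fit. Of 36 fatty acid oxidation genes, 28 had a lower mean, and 1 was called, in the other direction, against 1.71% of all genes called higher: Acaa2, the mitochondrial thiolase, averaged 198 ± 22.4 CPM in Hyp kidneys and 138 ± 29.1 CPM in WT kidneys (0.52 ± 0.13, adjusted p = 0.0454). Without WT_5, 2 were higher and 8 lower, against 4.49% and 5.21%. Glucose metabolism gave clearer single genes. Ldha, the lactate dehydrogenase subunit of glycolytic cells, had 575, 646, 592, 626 and 622 CPM in the Hyp kidneys, against 821, 916, 825, 852 and 693 CPM in the WT kidneys, all Hyp kidneys below all WT kidneys (-0.42 ± 0.07, adjusted p = 0.0115). Slc37a4, the carrier that brings glucose 6-phosphate into the endoplasmic reticulum for glucose release, averaged 258 ± 32.2 CPM in Hyp kidneys and 363 ± 43.2 CPM in WT kidneys (-0.49 ± 0.10, adjusted p = 0.0215), and Ldhb 1280 ± 64.7 CPM in Hyp kidneys and 1560 ± 137 CPM in WT kidneys (-0.28 ± 0.07, adjusted p = 0.0496). Both were lower. Pfkp, a phosphofructokinase isoform that commits glucose to glycolysis, was higher, with 115, 97.5, 118, 110 and 103 CPM in the Hyp kidneys, against 79.8, 74.8, 69.9, 78.3 and 94.9 CPM in the WT kidneys (0.45 ± 0.08, adjusted p = 0.0156). Ldha and Pfkp were called in all 10 fits without 1 library, Slc37a4 in 6 (largest adjusted p 0.0576, without WT_2), Ldhb in 2 (largest adjusted p 0.116, without Hyp_4) and Acaa2 in 2 (largest adjusted p 0.116, without Hyp_5). Ldha (adjusted p = 0.166) and Pfkp (adjusted p = 0.269) lost the call in the fit of all 3 groups.

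Heat shock chaperones, which help proteins fold, also had lower means. All 31 tested had a lower mean in Hyp kidneys, with a median log2 fold change of -0.39, and -0.48 without WT_5. Called lower were 2 with 10 libraries, Hspd1 and Hspe1, against 1.63% of all genes tested, and 9 without WT_5, against 5.21%. Hspd1 and Hspe1 encode HSP60 and its lid HSP10, which together fold proteins in the mitochondrial matrix. They lie head to head on chromosome 1 and share 1 promoter region. The Hspe1 promoter window is shown because it carries the heat shock element between the 2 genes. It is RefSeq sequence of build GRCm38.p6, chr1:55087898-55088197, plus strand, from 250 bases before to 50 bases after the start of Hspe1, and 285 of its 300 bases are also in the Hspd1 window on the minus strand. Capitals mark the heat shock element repeat, at positions 162 to 179 counted from 1 at the 5′ end.
Hspe1 promoter window: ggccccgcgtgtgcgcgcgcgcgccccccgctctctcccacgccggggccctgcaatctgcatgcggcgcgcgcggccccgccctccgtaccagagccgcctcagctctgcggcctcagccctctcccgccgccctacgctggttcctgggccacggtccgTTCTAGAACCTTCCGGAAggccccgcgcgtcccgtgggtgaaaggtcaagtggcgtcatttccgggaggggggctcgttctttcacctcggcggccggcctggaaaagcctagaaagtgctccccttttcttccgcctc

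The motif searched was GAANNTTCNNGAA on both strands, whose reverse complement is TTCNNGAANNTTC. It was present in 7 of 33 promoter windows of 24 heat shock genes, those of Chordc1, Dnajb6, Hspd1, Hspe1 and Hsph1, and in 198 of 32851 promoter windows of all genes (0.603%). The windows are not independent, since those of Hspd1 and Hspe1 hold the same element and some genes have several windows. A match is a description of the letters in the window and not of binding. Hspd1 had 734, 691, 729, 776 and 707 CPM in the Hyp kidneys, against 966, 1110, 1030, 1120 and 763 CPM in the WT kidneys (-0.45 ± 0.09, adjusted p = 0.027). Hspe1 had 138, 156, 135, 144 and 141 CPM in the Hyp kidneys, against 179, 227, 201, 256 and 153 CPM in the WT kidneys (-0.51 ± 0.11, adjusted p = 0.0352). In both genes WT_5 was the lowest WT kidney: for Hspd1 it lay within the Hyp range, and for Hspe1 just below Hyp_2, the highest Hyp kidney. Hspd1 was called in 3 of the 10 fits without 1 library (largest adjusted p 0.0708, without Hyp_5) and Hspe1 in 2 (0.0915, without WT_2). The cytosolic HSP90 genes were called only without WT_5. Hsp90aa1 had 517, 415, 728, 450 and 437 CPM in the Hyp kidneys, against 598, 960, 930, 1210 and 518 CPM in the WT kidneys (-0.85 ± 0.20, adjusted p = 0.0259 without WT_5; -0.72 ± 0.22, adjusted p = 0.0888 with 10 libraries). Hyp_3 exceeded WT_1 and WT_5. Hsp90ab1 averaged 1440 ± 207 CPM in Hyp kidneys and 2050 ± 473 CPM in WT kidneys (-0.60 ± 0.14, adjusted p = 0.0237 without WT_5; -0.51 ± 0.15, adjusted p = 0.0755 with 10 libraries). Summed over the list, the levels were 7540, 6760, 9510, 6840 and 6960 CPM in Hyp kidneys, against 7920, 10400, 11300, 12900 and 8170 CPM in WT kidneys. The WT kidneys differed among themselves by more than 1.5-fold, and WT_1 and WT_5 lay below Hyp_3. The unfolded protein response genes of the endoplasmic reticulum had a median of -0.17 and no call with 10 libraries, and 2 of 27 called lower without WT_5, against 5.21% of all genes.

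Apob, the structural protein of lipoprotein particles, which proximal tubule cells can secrete, was higher in Hyp kidneys, with 42.3, 40.7, 42.2, 39.2 and 46.2 CPM in the Hyp kidneys, against 33.1, 21.4, 20.2, 19.8 and 29 CPM in the WT kidneys. The groups did not overlap, and the change was 0.78 ± 0.14, adjusted p = 0.0127. It was called in all 10 fits without 1 library, the fit without Hyp_4 included. Apob (adjusted p = 0.113) lost the call in the fit of all 3 groups. Enzymes of cholesterol synthesis moved both ways: Msmo1, a sterol demethylase, averaged 35.3 ± 5.59 CPM in Hyp kidneys and 26.7 ± 1.35 CPM in WT kidneys (0.40 ± 0.10, adjusted p = 0.0491), and Hmgcs1, which makes HMG-CoA, 472 ± 26.3 CPM in Hyp kidneys and 583 ± 41 CPM in WT kidneys (-0.30 ± 0.06, adjusted p = 0.0282). Without 1 library, Msmo1 in 2 (largest adjusted p 0.116, without Hyp_5) and Hmgcs1 in 4 (largest adjusted p 0.077, without Hyp_5) of 10 fits held the call. Apob and Ttr were the 2 called of 12 tested genes typical of hepatocytes, against 1.71% of all genes called higher. The list summed to 1180 to 2000 CPM in Hyp and 155 to 583 CPM in WT kidneys, and Ttr was most of it in the Hyp kidneys and WT_5 but not in WT_1 to WT_4. Among 43 genes of amino acid breakdown, Gldc, which splits glycine in mitochondria, was higher, with 191, 193, 152, 177 and 191 CPM in the Hyp kidneys, against 80.9, 134, 131, 106 and 102 CPM in the WT kidneys (0.71 ± 0.12, adjusted p = 0.0115). Haao, of the tryptophan to NAD route, averaged 190 ± 10.7 CPM in Hyp kidneys and 246 ± 28.6 CPM in WT kidneys (-0.37 ± 0.08, adjusted p = 0.0285). It was lower, as was Ftcd. Gldc was called in all 10 fits without 1 library, and Haao in 3 (largest adjusted p 0.0769, without Hyp_5). Gldc (adjusted p = 0.112) lost the call in the fit of all 3 groups. Gldc (adjusted p = 0.0671) lost the call with WT_5 moved to Hyp.

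Several immunoglobulin transcripts, made by plasma cells, were higher in Hyp kidneys. The other B and plasma cell genes tested were not called with 10 libraries, and some of the list were called higher only without WT_5. Of 11 tested B and plasma cell genes, 4 were called higher and 0 lower (median 0.71), against 1.71% and 1.63% of all genes tested. Without WT_5, 7 of 12 were called higher (median 1.17), against 4.49%. Jchain, which joins IgA and IgM into polymers, had 33.2, 27.2, 77, 53 and 55.9 CPM in the Hyp kidneys, against 13.3, 8.04, 9.36, 17.2 and 19.3 CPM in the WT kidneys (1.87 ± 0.30, adjusted p = 0.00959). Igha, the heavy chain constant region of IgA, had 131, 106, 284, 193 and 224 CPM in the Hyp kidneys, against 44, 29.7, 29.4, 67.3 and 87 CPM in the WT kidneys (1.87 ± 0.34, adjusted p = 0.0146). Igkc, the kappa light chain constant region, had 69.1, 68.6, 163, 121 and 119 CPM in the Hyp kidneys, against 34.1, 21.5, 23.6, 43.6 and 55.7 CPM in the WT kidneys (1.60 ± 0.29, adjusted p = 0.0156). In all 3 genes every Hyp kidney was above every WT kidney, Hyp_3 was the highest and WT_5 the highest WT kidney. They were called in all 10 fits without 1 library. Igha (adjusted p = 0.0676) and Igkc (adjusted p = 0.0738) lost the call in the fit of all 3 groups. Iglc1, a lambda light chain region with close copies, had 4.99, 1.14, 3.7, 4.61 and 5.84 CPM in the Hyp kidneys, against 0.359, 1.31, 0.37, 1.28 and 1.25 CPM in the WT kidneys (2.12 ± 0.45, adjusted p = 0.0284) and was called in 3 of those fits (largest adjusted p 0.0773, without Hyp_5). The summed level of the list was 418, 351, 806, 566 and 604 CPM in Hyp kidneys, against 222, 240, 264, 373 and 329 CPM in WT kidneys, and Hyp_2 fell below WT_4. Mzb1 and Derl3, which help plasma cells secrete, averaged 1.16 ± 0.423 CPM in Hyp kidneys and 1.46 ± 0.45 CPM in WT kidneys (-0.33 ± 0.30, adjusted p = 0.55) and 1.19 ± 0.612 CPM in Hyp kidneys and 1.83 ± 0.971 CPM in WT kidneys (-0.62 ± 0.38, adjusted p = 0.352). Xbp1, a transcription factor of secretory cells, averaged 171 ± 48.9 CPM in Hyp kidneys and 161 ± 43.1 CPM in WT kidneys (0.09 ± 0.20, adjusted p = 0.825). None of these 3 genes was called in either fit. Of the 11 tested genes of the list, Mzb1 and Derl3 were the 2 with a lower mean in Hyp kidneys, and 9 had a higher mean.

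Fewer genes of other leukocytes were called. All 23 tested macrophage and myeloid markers had a higher mean in Hyp kidneys (median 0.41). With 10 libraries 1 of them was called, against 1.71% of all genes called higher. This was the mannose receptor Mrc1, which averaged 4.62 ± 0.784 CPM in Hyp kidneys and 2.73 ± 0.598 CPM in WT kidneys (0.75 ± 0.18, adjusted p = 0.0418). Mrc1 was called in 3 of 10 fits without 1 library (adjusted p up to 0.104, without Hyp_5). No T, NK, neutrophil or mast cell marker was called with 10 libraries, but few passed the filter on low counts. Of 24 T and NK cell genes 6 were tested, and of 16 neutrophil and mast cell genes 2. Without WT_5, 1 of 6 T and NK cell genes was called higher, against 4.49% of all genes tested. Of 35 NF-kB and cytokine genes, 3 were called higher, against 1.71% of all genes tested. Cxcl16, a chemokine that tubule cells display on their surface, had 48.1, 47.7, 45.3, 52.1 and 62.5 CPM in the Hyp kidneys, against 30.8, 32.1, 34.5, 27.5 and 43 CPM in the WT kidneys (0.61 ± 0.12, adjusted p = 0.0202). Lcn2, the injury and iron-binding protein NGAL, was a low transcript, with 2.53, 2.23, 2.04, 2.77 and 4.43 CPM in the Hyp kidneys, against 1.22, 1.31, 1.37, 1.23 and 1.36 CPM in the WT kidneys (1.11 ± 0.22, adjusted p = 0.0237). Icam1, an adhesion molecule for leukocytes, averaged 16.7 ± 1.11 CPM in Hyp kidneys and 13 ± 1.47 CPM in WT kidneys (0.37 ± 0.09, adjusted p = 0.0488). For these genes no Hyp kidney overlapped a WT kidney. Without 1 library, Cxcl16 in 7 (largest adjusted p 0.0578, without WT_2), Lcn2 in 7 (largest adjusted p 0.061, without WT_2) and Icam1 in 1 (largest adjusted p 0.117, without Hyp_5) of 10 fits held the call. In the complement list, 19 of 23 genes had a higher mean in Hyp kidneys (median 0.34), and without WT_5 2 were called higher and 1 lower, against 4.49% and 5.21% of all genes. With 10 libraries 1 was called lower, against 1.63% of all genes. This was Masp2, which starts the lectin pathway (-0.81 ± 0.19, adjusted p = 0.0407, called in 3 of 10 fits without 1 library, with adjusted p up to 0.0991 without WT_2).

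The direction of the interferon genes depended on WT_5. With 10 libraries, 29 of 33 type I interferon genes had a lower mean in Hyp kidneys (median -0.47), and without WT_5 22 had a higher mean (median 0.14). None was called in either fit. The list summed to 259, 209, 244, 299 and 261 CPM in Hyp kidneys, against 215, 215, 273, 227 and 705 CPM in WT kidneys, so that WT_5 stood above all other libraries by more than 2-fold. Oas2, an antiviral enzyme that senses double-stranded RNA, had 1.37, 0.544, 1.05, 1.84 and 1.71 CPM in the Hyp kidneys, against 1.58, 1.12, 1.8, 2.21 and 12.3 CPM in the WT kidneys (-1.55 ± 0.64, adjusted p = 0.178; without WT_5 -0.38 ± 0.33, adjusted p = 0.501). Oas1a, of the same family, had 1.06 to 1.64 CPM in Hyp kidneys, at most 2.27 CPM in the WT kidneys 1 to 4 and 11.4 CPM in WT_5 (-1.47 ± 0.62, adjusted p = 0.187; without WT_5 -0.28 ± 0.28, adjusted p = 0.549). Of the antigen presentation and interferon gamma genes, Tap1, the peptide pump that loads MHC class I, was called higher only without WT_5. It had 7.38 to 9.27 CPM in Hyp kidneys, 5.11 to 5.66 CPM in the WT kidneys 1 to 4 and 12.2 CPM in WT_5 (without WT_5 0.63 ± 0.11, adjusted p = 0.00699; with 10 libraries 0.30 ± 0.23, adjusted p = 0.457). H2-T22, a nonclassical class I gene with close copies, was lower (-0.27 ± 0.07, adjusted p = 0.0433, called in 3 of 10 fits without 1 library, with adjusted p up to 0.111 without Hyp_5).

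**Figure D4:**
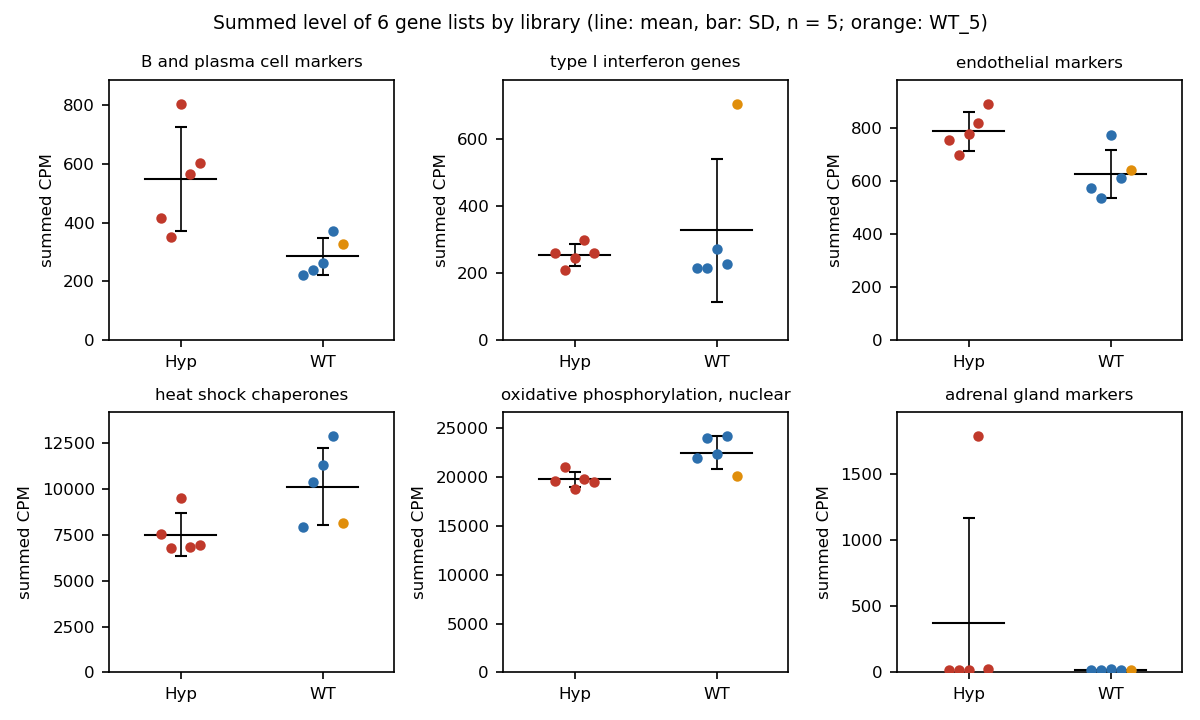
Summed CPM of 6 gene lists, each point 1 kidney, Hyp left and WT right (red Hyp, blue WT_1 to WT_4, orange WT_5), with the mean (line) and SD (bar, n = 5). WT_5 stands apart at 705 CPM for interferon genes, and Hyp_4 at 1790 CPM for adrenal genes. Heat shock and oxidative phosphorylation sums of WT_5 lie inside the Hyp range, as does the heat shock sum of WT_1.

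Most genes of the vessels, glomerulus and stroma had higher means, and those called were higher with 1 exception. All 24 endothelial markers had a higher mean in Hyp kidneys (median 0.34), against 8039 of 15479 genes tested. With 10 libraries 3 were called higher, against 1.71% of all genes, and without WT_5 6, against 4.49%. Ramp2, the partner that makes an adrenomedullin receptor in endothelium, had 15.2, 16.7, 13.3, 17.4 and 16.5 CPM in the Hyp kidneys, against 7.96, 9.34, 9.2, 8.84 and 11.4 CPM in the WT kidneys. The groups did not overlap, and the change was 0.76 ± 0.11, adjusted p = 0.00733. Egfl7, a secreted factor of endothelial cells, averaged 37.6 ± 3.18 CPM in Hyp kidneys and 29.4 ± 3.49 CPM in WT kidneys (0.36 ± 0.09, adjusted p = 0.0488), and Ptprb, an endothelial phosphatase, 36.4 ± 4.49 CPM in Hyp kidneys and 27.9 ± 3.04 CPM in WT kidneys (0.38 ± 0.10, adjusted p = 0.0485). Of 20 podocyte markers, 19 had a higher mean and 5 were called higher, against 1.71% of all genes tested. Among them, Podxl averaged 170 ± 23.9 CPM in Hyp kidneys and 126 ± 12.4 CPM in WT kidneys (0.44 ± 0.10, adjusted p = 0.0308), Synpo 48.2 ± 6.69 CPM in Hyp kidneys and 35.7 ± 2.94 CPM in WT kidneys (0.44 ± 0.09, adjusted p = 0.03), Ptpro 16.6 ± 1.53 CPM in Hyp kidneys and 12.8 ± 1.15 CPM in WT kidneys (0.38 ± 0.09, adjusted p = 0.0423), and Nes, an intermediate filament gene, 19.7 ± 3.82 CPM in Hyp kidneys and 13.5 ± 1.7 CPM in WT kidneys (0.56 ± 0.13, adjusted p = 0.0428). Smooth muscle and pericyte genes gave 3 calls of 18, all higher, against 1.71% of all genes tested. These were Mcam, an adhesion molecule (0.47 ± 0.09, adjusted p = 0.0176), Notch3, the receptor of mural cells (0.39 ± 0.09, adjusted p = 0.0318), and Lmod1, which builds actin filaments (0.71 ± 0.15, adjusted p = 0.027). Ramp2 was called in all 10 fits without 1 library, Mcam in 8 (largest adjusted p 0.0547, without Hyp_5), Lmod1 in 6 (largest adjusted p 0.0697, without WT_2), Synpo in 5 (largest adjusted p 0.0791, without Hyp_5), Podxl in 5 (largest adjusted p 0.0809, without WT_2), Nes in 4 (largest adjusted p 0.103, without WT_2), Notch3 in 3 (largest adjusted p 0.0838, without Hyp_5), Egfl7 in 2 (largest adjusted p 0.115, without Hyp_5), Ptprb in 2 (largest adjusted p 0.116, without Hyp_5) and Ptpro in 1 (largest adjusted p 0.103, without Hyp_5). Ramp2 (adjusted p = 0.244) lost the call in the fit of all 3 groups.

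Matrix genes mostly had higher means. Of 40 fibroblast and matrix genes, 35 had a higher mean in Hyp kidneys (median 0.32 in both fits). With 10 libraries 5 were called higher and 1 lower, against 1.71% and 1.63% of all genes tested. Without WT_5 these counts were 8 and 1, against 4.49% and 5.21%. Col1a2, a chain of fibrillar collagen I, had 54.4, 52.6, 58.5, 55.2 and 58.3 CPM in the Hyp kidneys, against 45.8, 43.2, 48.4, 42 and 42.3 CPM in the WT kidneys, a difference without overlap (0.34 ± 0.06, adjusted p = 0.0128). Its partner chain Col1a1 had 25.1 to 30.2 CPM in Hyp and 14.9 to 25.5 CPM in WT kidneys and was not called (0.33 ± 0.13, adjusted p = 0.153). Fn1, fibronectin, averaged 39.4 ± 3.9 CPM in Hyp kidneys and 28.9 ± 4.46 CPM in WT kidneys (0.45 ± 0.11, adjusted p = 0.0412), and Col5a1 13.5 ± 2.24 CPM in Hyp kidneys and 8.39 ± 2.1 CPM in WT kidneys (0.69 ± 0.17, adjusted p = 0.0439). Loxl2, which crosslinks collagen, averaged 8.71 ± 1.33 CPM in Hyp kidneys and 5.82 ± 0.876 CPM in WT kidneys (0.58 ± 0.14, adjusted p = 0.0452). Col6a1 had 16.1, 17.1, 17.3, 33 and 21.5 CPM in the Hyp kidneys, highest in Hyp_4, and 12, 10.7, 14.5, 12.3 and 12.9 CPM in the WT kidneys (0.75 ± 0.18, adjusted p = 0.0439; without Hyp_4 0.53 ± 0.11, adjusted p = 0.0445). The gene called lower was Itgb6, the epithelial integrin subunit that activates TGF-beta. It had 45.4, 83.4, 50.1, 76.5 and 69.5 CPM in the Hyp kidneys, against 145, 163, 130, 121 and 89.6 CPM in the WT kidneys (-0.99 ± 0.18, adjusted p = 0.0156), and WT_5 was the lowest WT kidney. The summed level of proximal tubule markers, given above, was lower in the same kidneys, and the part of cell composition in the differences of vessel, glomerular and stromal genes was not tested. Among tubular injury genes, Prom1, a stem cell and regeneration marker, was higher, with 57.8, 65.9, 51.5, 58.8 and 75.7 CPM in the Hyp kidneys, against 27.2, 35, 34.2, 21.2 and 45.1 CPM in the WT kidneys (0.93 ± 0.17, adjusted p = 0.0153). Havcr1, the proximal injury marker KIM-1, averaged 29.9 ± 6.22 CPM in Hyp kidneys and 30.7 ± 14.4 CPM in WT kidneys (-0.03 ± 0.26, adjusted p = 0.956). Col1a2, Itgb6 and Prom1 were called in all 10 fits without 1 library, Fn1 in 3 (largest adjusted p 0.102, without Hyp_5), Col6a1 in 3 (largest adjusted p 0.106, without WT_2), Loxl2 in 3 (largest adjusted p 0.113, without Hyp_5) and Col5a1 in 1 (largest adjusted p 0.11, without Hyp_5). Col1a2 (adjusted p = 0.417) and Prom1 (adjusted p = 0.0813) lost the call in the fit of all 3 groups. Col1a2 (adjusted p = 0.0817) lost the call with WT_5 moved to Hyp.

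**Figure D5:**
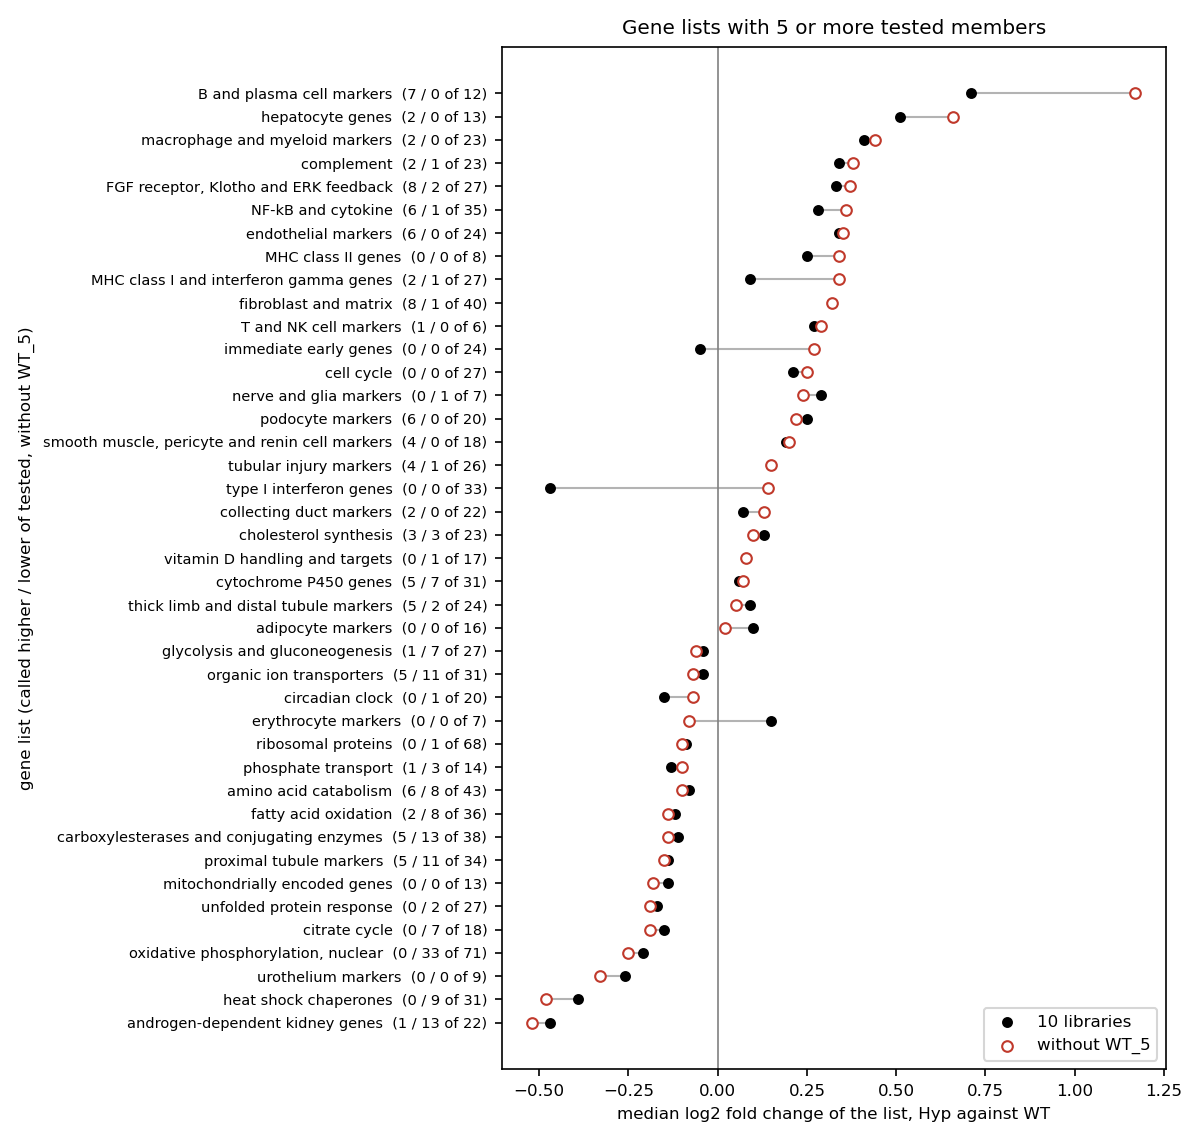
Median log2 fold change, Hyp against WT, of each gene list with 5 or more tested members, with 10 libraries (black) and without WT_5 (open red). Labels give the members called higher and lower without WT_5. When WT_5 is left out, type I interferon genes move from -0.47 to 0.14.

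Further lists with no call among 10 libraries, beside those given above, were those of the circadian clock, immediate early genes, cell cycle, ribosomal proteins, MHC class II, T and NK cells, neutrophils and mast cells, adipocytes, skeletal muscle, pancreas, erythrocytes and urothelium. Few genes were tested in some of them: 6 of T and NK cells, 2 of neutrophils and mast cells, 3 of skeletal muscle and 1 of pancreas. The nerve and glia list had 1 of 7 tested, Synpr, against 1.63% of all genes called lower. The immediate early genes varied within both groups, with 370 to 885 CPM in Hyp and 332 to 1090 CPM in WT kidneys. The adipocyte sum ran from 643 to 1760 CPM in Hyp, highest in Hyp_4, and from 768 to 1330 CPM in WT kidneys. The erythrocyte sum was 256 to 516 CPM in Hyp and 132 to 442 CPM in WT kidneys, lowest in WT_5. Their part in the differences above was not tested.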

How the data were processed

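Kidney RNA of 5 Hyp and 5 WT mice was analysed from the authors' deposited tables. Per the labels, RNA was isolated from total kidney, and libraries were made with the NEB Next Ultra RNA kit. Per the submitters' processing notes the build was mm10. Of 26732 matched genes, 566 (2.12%) start where the GRCm38 annotation in the reference has them, so the table's coordinates were not used, and the promoter window comes from the reference alone. The aligner, counter, annotation and strand setting are not stated in the labels. Raw read counts per gene, as deposited, were tested. FPKM values, normalised by the authors for length and depth, were used for levels between genes. The log2 fold changes and adjusted p-values of the authors' deposited table were used for counts of shared calls. Of 28216 rows, 300 without a gene name (0.252% to 0.363% of counts) were left out, and 30 further per-sample columns were not used. Testing used edgeR 4.0.16 in R 4.3.3 (TMM scaling, filterByExpr, quasi-likelihood F-test, Benjamini-Hochberg adjustment, threshold 0.05), with and without WT_5; SEs are the log2 fold change over the square root of F. DESeq2 1.42.0, limma 3.58.1 and other settings were alternatives. The code was tested on simulated data. Total counts per library were 14251927 to 21885678. No pair of replicates agreed within sampling noise (chi-square per degree of freedom of 8.23 or more), so counting depth alone did not set the precision. The comparison, lists and named genes were chosen with earlier results of these data known. Named were Phex, the 12 largest rises and falls among protein-coding genes called with and without WT_5 (mean log2 CPM of 1 or more), up to 4 called members of each list by smallest p, or 2 for a list with no call, and a hand-picked set of pathway genes. Etv1, Spry2, Spred2, Spred3, Kcnj10, Trpm6, Wnk4, Slc22a2, Slc7a8, Ces2b, Ces2e, Gsta2, Ugt2b38, Nat8, Nqo1, Cndp2, Kap, Cyp7b1, Nes, Col6a1, Loxl2, Mzb1, Derl3, Xbp1, the adrenal genes and Ddx3y were chosen after their values were seen. Reads shared by near-identical or overlapping genes cannot be assigned with certainty.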

Additional observations from a re-analysis of the deposited data

Results flagged for a closer look

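For each named gene, the log2 CPM of the most extreme library in a group was compared with the rest. The gap to its nearest neighbour, as a share of the group's whole range, passed 0.71 in 24 of 266 groups of 5 (10 Hyp and 14 WT groups). Chance passes this limit in about 1 in 20 groups. In the Hyp group, Hyp_4 was high in Abcb1b (0.728), Star (0.968) and Scarb1 (0.889), the first of which had a lost call without it and the others no call in either fit. Hyp_1 was low in Aldh1a1 (0.76) and Dnase1 (0.948). Hyp_2 was high in Fat2 (0.754), Haao (0.811) and Sdhb (0.717) and low in Iglc1 (0.713). Hyp_3 was high in Derl3 (0.806). WT_5 accounted for 12 of the 14 WT groups. It was high among WT kidneys in Ces1g (0.727), Ttr (0.747), Prlr (0.859), Elapor1 (0.851), Slc13a1 (0.79), Oas2 (0.726) and Tap1 (0.882) and low in Calb1 (0.747), Synpr (0.851), Ct55 (0.741), Slc22a12 (0.76) and Ephx2 (0.738). In each of these genes except Oas2 and Tap1 the gap of WT_5 lay on the side of the Hyp kidneys. For Oas2 it lay away from them, and for Tap1 WT_5 passed beyond them. WT_1 was high in Slc34a1 (0.838) and Ctnna2 (0.751), away from the Hyp kidneys.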

How the results depend on the processing

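With 10 libraries the test called 264 genes higher and 252 lower. DESeq2 called 595 and 750, limma-voom with quality weights 521 and 542, 1 fit of all 3 groups 28 and 26, and the Hyp group enlarged by WT_5 661 and 869. Leaving out 1 library gave 80 to 702 higher and 90 to 814 lower. Without WT_5 the counts were 702 and 814, 76 and 84 in 1 fit of all groups, and 224 to 681 and 256 to 837 with a further library left out. RLE scaling, voom, robust fitting and the filters on low counts moved the counts by less than 1.5 times. Same-numbered libraries share no stated pairing, and their deviations correlated at -0.05 to 0.20. A fit with the replicate number as a block called 342 and 316 genes with 10 libraries, and 247 and 271 without WT_5. The cause of these shifts was not tested. Over 133 genes and 20 alternatives, 2059 of 2660 values kept direction and side of the threshold, 528 lost the call, 56 gained one and 17 changed sign. Of 100 called genes, 14 were called under every alternative. The sign changed for 2 interferon genes with WT_5 moved to Hyp (Oas2 0.90, Oas1a 0.95) and, in genes near 0 with no call in any of these fits, for Slc34a3 (0.043), Trpv5 (-0.001), Xbp1 (-0.009) and Havcr1 (0.02) in the same setting. Havcr1 had 0.052 with voom, 0.034 with quality weights and 0.036 with the replicate block. Leaving out 1 library gave -0.17 to 0.27 for Havcr1, -0.20 to 0.033 for Slc34a3, -0.093 to 0.23 for Xbp1, -0.022 to 0.27 for Aqp2 and -0.071 to 4.34 for Star. Genes with few counts were removed by the filter, and no change in them could be seen at this depth.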
